A study of Mus musculus with 6 samples.

Results

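The genes described here encode the machinery that carries a cell from G1 into S phase and copies its DNA: cyclin E and its kinase, the E2F transcription factors, the factors that license and fire replication origins, the replication fork and the enzymes that make deoxynucleotides. They were chosen by name, as a list of 45 genes, and all 45 were found among the 20066 genes of the deposited table. RNA was sequenced from neonatal cardiomyocytes (CMs) of C57BL/6 mice at postnatal day 0 to 1, cultured for 96 h with dimethylsulfoxide (DMSO) or with a cell-permeable form of α-ketoglutarate (αKG), a Krebs cycle intermediate, and each treatment had 3 libraries. No gene was altered in either group, so the libraries shared strain, age and culture time and differed in the treatment. The labels give the αKG concentration as 100 µM, and the study's methods give another. Hearts were dissociated and the cells plated on fibronectin without a stated sort, and the methods describe neonatal samples as isolations from pooled hearts. The study asked with these cultures whether αKG keeps CMs in an immature, cycling state. The labels do not say whether the libraries of a group came from separate isolations, so that p-values measure only the spread between these libraries.

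DNA is copied once per cell cycle because origins are prepared and used at different times. In G1, the origin recognition complex, CDC6 and CDT1 load the MCM helicase on DNA, which is called licensing. The kinases of cyclin D and then of cyclin E, the latter CDK2, release E2F factors from the retinoblastoma protein, E2F turns on the genes of S phase, and firing factors activate the helicase and bring in the polymerases. CMs of the mouse leave the cell cycle soon after birth, many of them after a last round of DNA replication without cell division.

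Values are normalised read counts: reads per gene divided by a factor for each library and rounded to whole numbers. The estimated depth was 3725428 to 4428655 reads in genes per library, which left members at values between 18 and 1086 and gave a counting error of 2.94 to 23% of a value, with a median of 7.24%. Counting error covers the drawing of reads alone, not the amplification of molecules before it. αKG replicate 3 stood apart from its group: across all genes its log2 values had a Pearson correlation of 0.962 and 0.963 with the other αKG libraries and of 0.977 to 0.98 with the DMSO libraries. Results are therefore given by library, and with and without αKG replicate 3 where they rest on it.

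The cardiomyocyte label was checked against defining genes. All 12 cardiomyocyte markers were listed, with summed values of 77592 to 80210 in DMSO and 82165 to 113811 in αKG, and 0 of 12 were called. *Ttn*, which encodes titin, made up most of that sum, with 51569 to 54216 in DMSO and 80306, 84136 and 55569 in αKG replicates 1 to 3, and the median log2 fold change of the 12 was 0.07. It was above 0 in 9 of the 12 and lowest in *Nkx2-5* (-0.41), which had 277, 265 and 263 in DMSO and 166, 173 and 283 in αKG. In *Pln* (-0.15) every αKG value lay below every control. Of the other cells a heart culture can hold, fibroblast markers (8 of 8 listed, 0 called) summed to 3211 to 3393 in DMSO, to 7183 and 7012 in αKG replicates 1 and 2 and to 3265 in αKG replicate 3. Epicardial markers (8 of 8 listed, 0 called) summed to 466 to 499, to 1177 and 1115, and to 454 in the same order of libraries. The collagen genes *Col1a1*, *Col1a2* and *Col3a1* made up most of the fibroblast sums. In these genes αKG replicates 1 and 2 exceeded the DMSO mean by 1.24, 1.57 and 1.14 (log2). The same difference was 0.85 in *Dcn*, 0.66 in *Pdgfra*, 0.41 in *Postn*, 0.04 in *Lum* and -0.03 in *Tcf21*. Endothelial markers (8 of 8 listed) summed to 1974 to 2080 in DMSO and 1378 to 1490 in αKG, and 6 of 8 were called lower in αKG. Of these, *Pecam1*, an adhesion protein of endothelium, had 339, 303 and 307 in DMSO and 129, 134 and 184 in αKG, and the log2 fold changes were -1.10 for it, -1.04 for *Cdh5*, -1.60 for *Emcn* and -1.14 for *Kdr* (limma adjusted p = 0.00778, 0.0181, 0.0223 and 0.0293). The 2 markers not called, *Tek* and *Flt1*, had log2 fold changes of 0.38 and 0.27, with αKG replicates 1 and 2 above all controls and αKG replicate 3 below them. The endothelial calls were lost when DMSO replicate 2 or 3 or αKG replicate 1 or 2 was left out, where 0 genes of the whole table were called lower, and without DMSO replicate 1 or with the replicate block 1 gene of the table was. Mural markers (6 of 6 listed, 0 called) summed to 2330 to 2422 in DMSO and 1852 to 2339 in αKG. *Abcc9* made up most of these sums, with 2020 to 2114 in DMSO and 1590, 1495 and 2060 in αKG replicates 1 to 3. The pericyte genes *Rgs5* and *Kcnj8* were at 6 or less in every library. Macrophage markers summed to at most 31 in any library, and *Adgre1*, *C1qa*, *C1qb* and *Fcgr1* were among the 4 of 7 not listed. The part of these cells in the members' values was not tested. In bulk RNA, fewer cycling cells and less RNA of a gene per cycling cell cannot be told apart.

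Which sequences lie at the starts of these genes was looked up first, because E2F sites are the textbook link between G1/S control and the replication genes. RefSeq (GRCm38.p6) held a promoter of 300 bases, from 250 before to 50 after the transcription start, for 39 of the 45 members. *Ccne2*, *Gmnn*, *Mcm4*, *Gins1*, *Gins2* and *Pole* had no entry. An E2F-like match was, on either strand, the word TTGGCGC, the variant that reads TTCCCGC, the variant that reads TTCGCGC or the variant that reads TTGCCGC. Such a match stood in the promoters of 27 of 39 members (69.2%), against 10.9% of the 27025 genes with a promoter and 18.3% of the 12289 of them that were in the expression table. CCAAT, a common promoter box, was found in 66.7% of members and 41.1% of all genes, and a CHR-like element (TTTGAA or TTCGAA), which marks many mitotic genes, in 23.1% and 21.7%. Member promoters had a median GC content of 60.0%, against 52.7% for all promoters, and the part of GC content in these shares was not tested. E2F-like and CCAAT matches overlapped in 3 of the 47 member promoters.

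Stretches of 230 bases, 200 before to 30 after the start, are shown for 4 members that stand for the patterns of expression below, with E2F-like matches in capitals. *Pola1* (chrX:93632126-93632355, minus strand) and *Tk1* (chr11:117825985-117826214, minus strand) were called higher in αKG, and *Mcm6* (chr1:128359676-128359905, minus strand) and *Cdc6* (chr11:98907951-98908180, plus strand) were not. All are written 5′ to 3′ along the gene.
Pola1: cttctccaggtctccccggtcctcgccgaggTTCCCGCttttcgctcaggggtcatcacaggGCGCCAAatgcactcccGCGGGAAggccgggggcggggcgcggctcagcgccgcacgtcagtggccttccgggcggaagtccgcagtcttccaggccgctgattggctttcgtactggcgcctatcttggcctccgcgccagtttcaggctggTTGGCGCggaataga
Mcm6: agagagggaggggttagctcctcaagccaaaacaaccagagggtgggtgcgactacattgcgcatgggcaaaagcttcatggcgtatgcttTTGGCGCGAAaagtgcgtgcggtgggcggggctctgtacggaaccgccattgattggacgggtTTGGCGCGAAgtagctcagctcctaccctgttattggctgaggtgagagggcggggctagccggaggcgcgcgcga
Cdc6: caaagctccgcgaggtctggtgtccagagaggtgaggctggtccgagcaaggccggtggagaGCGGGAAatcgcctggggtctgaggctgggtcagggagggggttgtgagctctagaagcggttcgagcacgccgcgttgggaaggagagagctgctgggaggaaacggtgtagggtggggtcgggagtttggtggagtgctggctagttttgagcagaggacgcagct
Tk1: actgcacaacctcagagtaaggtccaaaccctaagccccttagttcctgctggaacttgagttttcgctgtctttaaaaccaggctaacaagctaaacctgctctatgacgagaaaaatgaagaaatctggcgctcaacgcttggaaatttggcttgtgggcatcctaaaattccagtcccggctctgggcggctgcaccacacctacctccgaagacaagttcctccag
The *Pola1* stretch held 4 matches and the *Mcm6* stretch 4, which lie in overlapping pairs on opposite strands, so that each run of capitals there is 2 matches. *Cdc6* held 1 and *Tk1* none of these letters, which says nothing about other forms of the site.

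**Figure D1:**
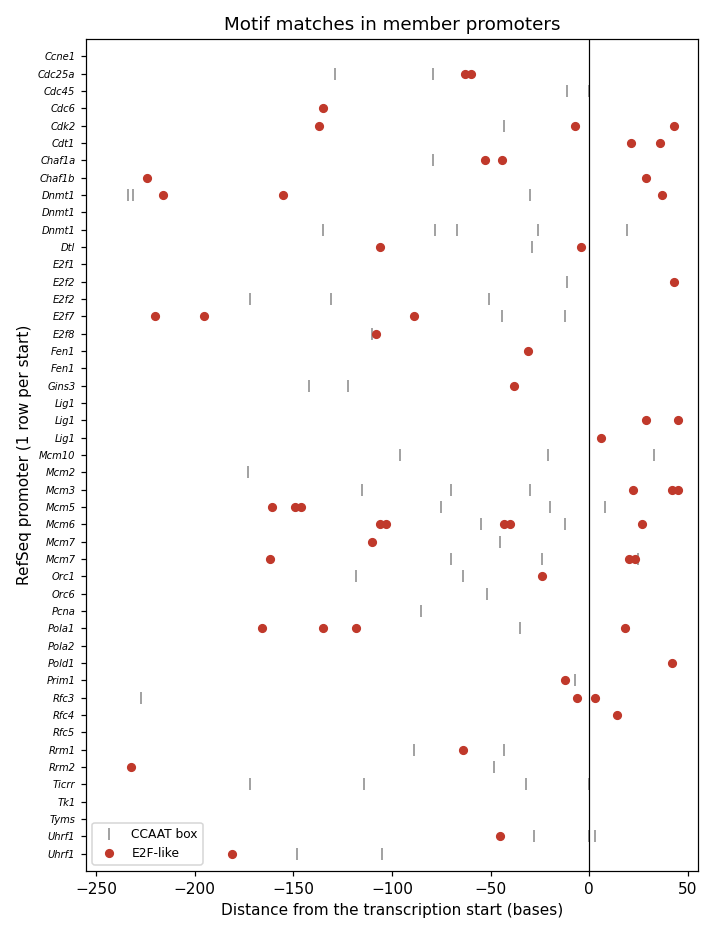
Positions of E2F-like matches (red circles) and CCAAT boxes (grey bars) in the 47 RefSeq promoters of 39 members, as distance in bases from the transcription start (horizontal axis), 1 promoter per row. Of the 56 E2F-like matches, 35 lay within 100 bases of the start.

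Whether these genes differ between αKG-treated and control CMs was asked with limma on log2(value + 1), fitted to all 20066 genes. With an adjusted p under 0.05 (Benjamini-Hochberg), 3 of the 45 members were higher in αKG and 0 were lower, where 2.83% of all genes were called higher and 0.952% lower. The 3 were *Pole*, the catalytic subunit of the leading-strand polymerase, *Pola1*, the catalytic subunit of the polymerase that starts each new strand, and *Tk1*, the thymidine kinase of S phase. A further 8 members had an adjusted p between 0.05 and 0.1, and 20 members were higher and 0 lower at an unadjusted p under 0.05 (15.7% and 12.4% of all genes). The fitted log2 fold change was above 0 in 45 of 45 members, against 52.9% of all genes, with a median of 0.50 against 0.04 over all genes and -0.07 over genes whose mean value reached 50. Leaving out αKG replicate 3 lowered the median to 0.22 and turned the sign of 14 members. The calls changed with the libraries in the fit. Without αKG replicate 3, 5 members were called, where 19.3% of all genes were called higher. Without DMSO replicate 1, 1 member was called (0.753% of all genes). With any other library left out, 0 members were called. At most 0.0199% of all genes were called higher there, so that this loss took in the whole table.

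**Figure D2:**
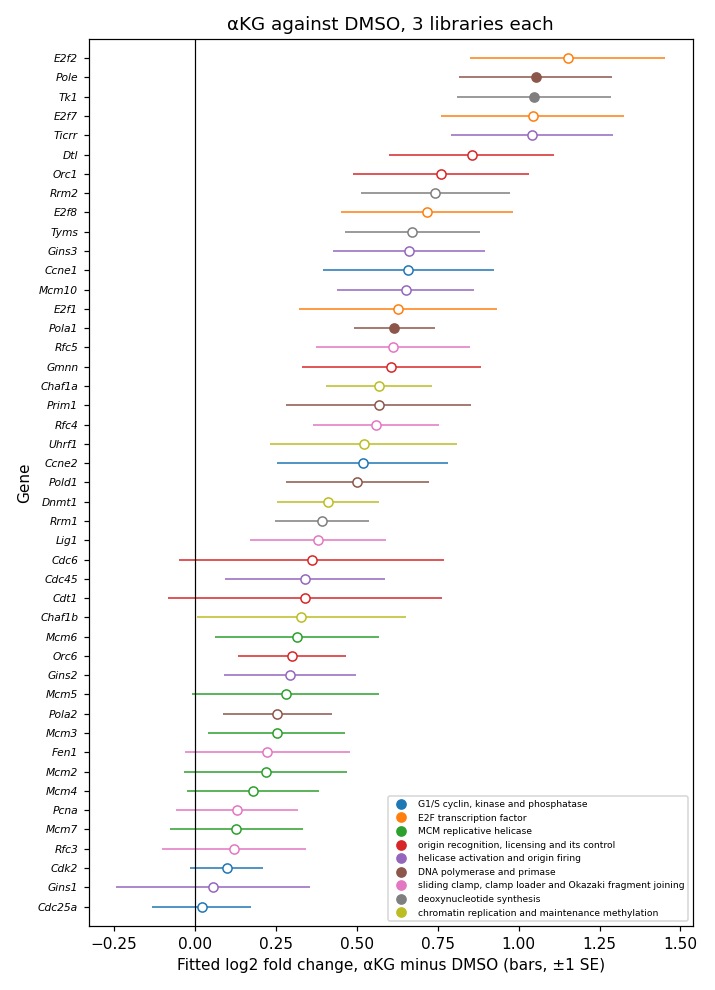
Fitted log2 fold change of αKG over DMSO (horizontal axis, bars of ± 1 SE, 3 libraries per group) for the 45 members, coloured by role, with filled circles for called genes and open circles for the others. All points lie above 0, from 0.02 (*Cdc25a*) to 1.15 (*E2f2*), with standard errors between 0.11 and 0.42.

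The 14 members whose 3 αKG values all lay above the 3 DMSO values were *E2f2*, *E2f7*, *Orc1*, *Dtl*, *Mcm10*, *Gins3*, *Ticrr*, *Pola1*, *Pole*, *Rfc4*, *Rfc5*, *Tyms*, *Tk1* and *Chaf1a*. This held for 13.7% of all genes in that direction and 14.6% in the other, in which 0 members lay. For the other 31 members the groups overlapped.

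The libraries within each group differed in these genes in a common order. DMSO replicate 1 was the highest of the DMSO libraries in 44 of 45 members (30.2% of all genes), *Pold1* being the exception, and in 40 members replicate 2 lay between replicates 1 and 3 (14.5% of all genes). The value in DMSO replicate 1 was 1.07-fold (*Cdc25a*) to 2.24-fold (*E2f1*) that in DMSO replicate 3, with a median of 1.53. αKG replicate 3 was the highest of all 6 libraries in 44 of 45 members (13.0% of all genes), and in *Tk1* it tied with αKG replicate 1. It lay above all DMSO libraries in 45 of 45 members (27.3% of all genes), whereas αKG replicates 1 and 2 both did so in 14 (30.4%). DMSO replicate 1 lay above αKG replicates 1 and 2 in 24 members (53.3%). This held for 36.2% of all genes and for 53.3% of genes whose mean reached 50. The values of αKG replicate 3 were 1.16-fold (*Tyms*) to 3.11-fold (*Cdt1*) the mean of the other αKG libraries, with a median of 1.66. Summed over the 45 members, the normalised read counts were 11029, 9034 and 7286 for DMSO replicates 1 to 3, against 10953, 9933 and 17021 for αKG replicates 1 to 3. The sums of αKG replicates 1 and 2 thus lay within the range of the DMSO sums, and that of αKG replicate 3 lay above all others.

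**Figure D3:**
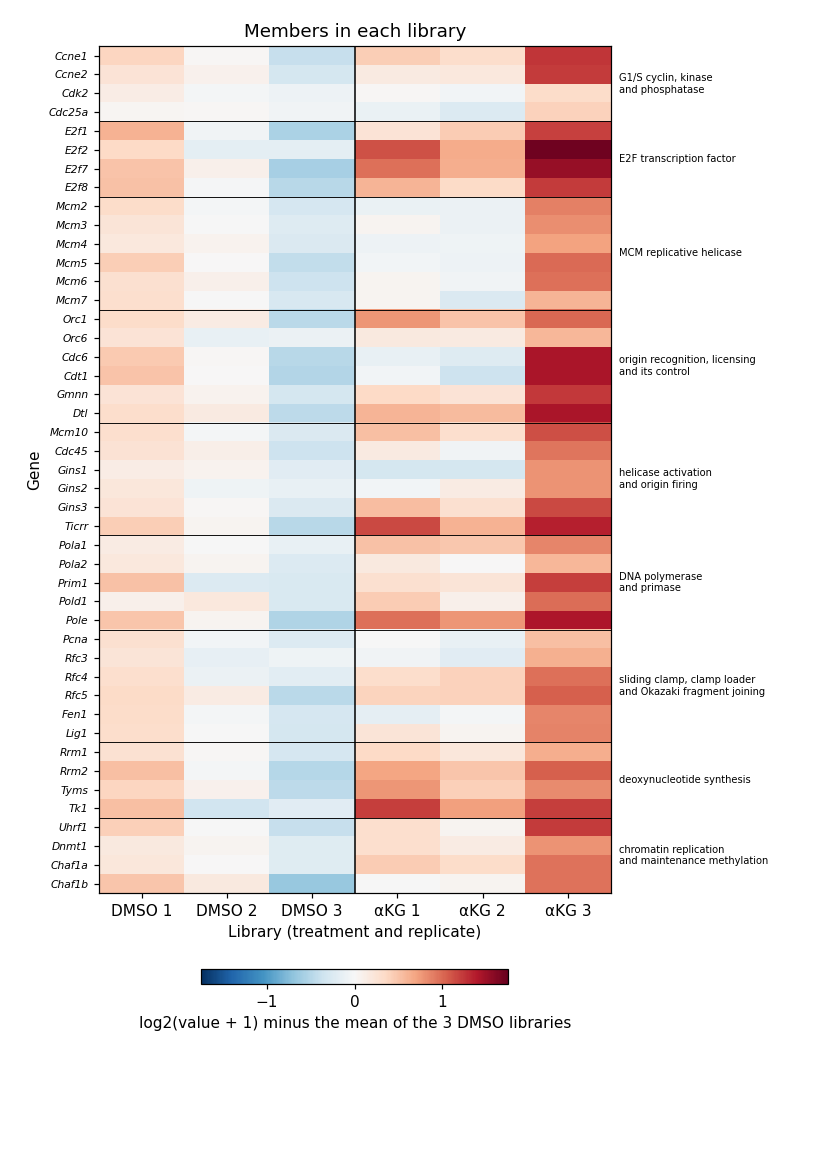
Each member (rows, by role) in each of the 6 libraries (columns), coloured by log2(value + 1) minus the mean of the DMSO libraries. The median over members was 0.29, 0.01 and -0.29 for DMSO replicates 1 to 3, against 0.28, 0.16 and 0.96 for αKG replicates 1 to 3.

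Against the DMSO mean, αKG replicate 3 was higher by 0.32 (*Cdk2*) to 1.70 (*E2f2*) on the log2 scale, and by more than 0.5 in 43 members. The mean of αKG replicates 1 and 2 ranged from -0.31 (*Gins1*) to 0.97 (*Tk1*). It lay below the DMSO mean in 14 members: all 6 MCM subunits, the licensing factors *Cdc6* and *Cdt1*, *Gins1*, *Pcna*, *Rfc3*, *Fen1*, *Cdc25a* and *Cdk2*. It lay more than 0.5 above it in 9: *Dtl*, *E2f2*, *E2f7*, *Orc1*, *Pole*, *Rrm2*, *Ticrr*, *Tk1* and *Tyms*. The members thus differed by degrees in how far αKG replicates 1 and 2 lay from the controls, and αKG replicate 3 exceeded their mean in all 45.

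**Figure D4:**
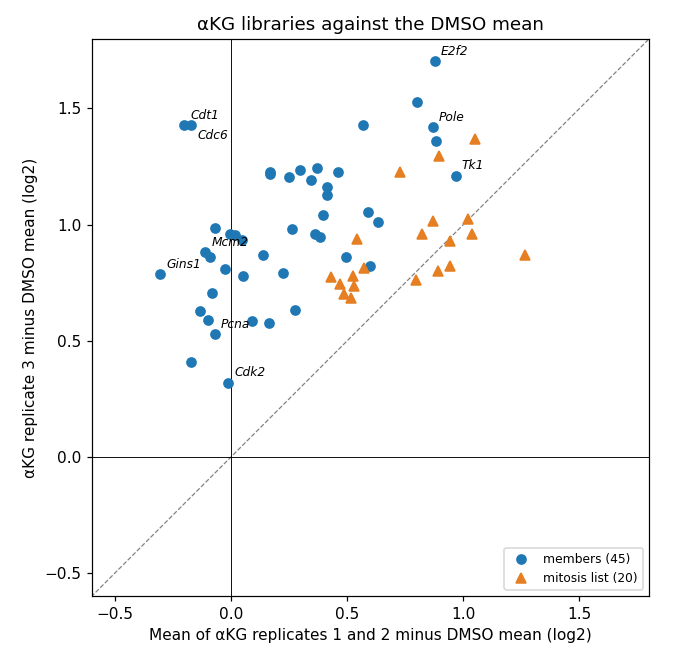
Difference from the DMSO mean on the log2 scale, for the mean of αKG replicates 1 and 2 (horizontal axis) and for αKG replicate 3 (vertical axis), with 45 members as blue circles and 20 mitosis genes as orange triangles. All members lie above the line of equal change, whereas the mitosis genes lie around it, with medians of 0.81 and 0.84.

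Cyclin E and its partners open S phase. *Ccne1*, which encodes cyclin E1, had normalised read counts of 121, 94 and 70 in DMSO replicates 1 to 3, against 125, 115 and 221 in αKG replicates 1 to 3. The αKG values of replicates 1 and 2 stood beside the highest DMSO value, and replicate 3 stood alone. The log2 fold change was 0.66 ± 0.27 (SE, n = 3 per group, limma adjusted p = 0.145). *Cdc25a*, the phosphatase that removes the inhibitory phosphate from CDK2, had 270, 266 and 252 in DMSO and 243, 223 and 349 in αKG. Here αKG replicates 1 and 2 lay below every control library, and the log2 fold change of 0.02 ± 0.15 came with an adjusted p of 0.941 in limma. *Ccne2* and *Cdk2* had log2 fold changes of 0.52 and 0.10. None of these 4 genes was called, and their median was 0.31.

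The E2F genes among the members had the highest median log2 fold change of the 9 role groups, 0.88, also with 0 of 4 called. Outside the list, *E2f3*, *E2f4*, *E2f5* and *E2f6* had log2 fold changes of 0.14, -0.03, -0.16 and -0.11. *E2f2*, an activator of the family, was low in controls, with 29, 20 and 20, and had 50, 36 and 76 with αKG. The groups did not overlap, and the log2 fold change was 1.15 ± 0.30 (SE, n = 3 per group, limma adjusted p = 0.0609). *E2f1*, the activator most studied at the G1/S boundary, had 148, 93 and 66 in DMSO and 115, 132 and 223 in αKG. DMSO replicate 1 exceeded both lower αKG libraries, and the log2 fold change of 0.63 ± 0.31 had an adjusted p of 0.212 in limma. *E2f7* and *E2f8*, atypical members that repress E2F targets later in S phase, had log2 fold changes of 1.04 (limma adjusted p = 0.066) and 0.72 (adjusted p = 0.123). Without αKG replicate 3, *E2f2* was called (limma adjusted p = 0.0358).

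The MCM2 to MCM7 proteins form the ring that unwinds DNA at the fork, and their genes had nearly the same order of libraries. *Mcm2* had 562, 440 and 368 in DMSO and 415, 417 and 830 in αKG. *Mcm6* had 437, 383 and 280 in DMSO and 372, 346 and 703 in αKG, and *Mcm7* had 470, 381 and 315 in DMSO and 398, 321 and 577 in αKG. In all 6 subunits αKG replicate 3 was the highest library, DMSO replicate 1 came next, and αKG replicates 1 and 2 lay inside the range of the controls. Their log2 fold changes ran from 0.13 ± 0.20 (*Mcm7*) to 0.32 ± 0.25 (*Mcm6*), with limma adjusted p of 0.705 and 0.433, and 0.22 ± 0.25 (adjusted p = 0.584) in *Mcm2*. The role median against the DMSO mean was 0.85 in αKG replicate 3 and -0.08 in the other αKG libraries, and all 6 log2 fold changes were below 0 once αKG replicate 3 was left out, between -0.11 and -0.01. *Mcm7* shares its locus with *Ap4m1* and *Cops6* on the opposite strand, and the counting is not stated to use strand.

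Among the licensing factors, *Cdt1* showed the widest gap between αKG libraries of all members. This gene, whose product brings the MCM ring to the origin and is destroyed when S phase begins, had 110, 78 and 54 in DMSO and 75, 60 and 210 in αKG. *Cdc6*, its partner in loading, had 95, 70 and 49 in DMSO and 63, 59 and 187 in αKG, and is given here because its promoter is shown, a choice made after its values were seen. In both genes αKG replicates 1 and 2 lay among the controls and replicate 3 far above them. The log2 fold changes were 0.34 ± 0.42 for *Cdt1* and 0.36 ± 0.41 for *Cdc6* (SE, n = 3 per group, limma adjusted p = 0.615 and 0.58), with the largest standard errors of the list. *Gmnn* encodes geminin, the inhibitor of CDT1. It had 56, 49 and 38 in DMSO and 60, 56 and 112 in αKG, with a log2 fold change of 0.61 ± 0.28 and an adjusted p of 0.184 in limma.

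In *Dtl* the groups did not overlap. This gene encodes the substrate receptor of the ubiquitin ligase that destroys CDT1 at replicating DNA, and had 182, 164 and 107 in DMSO and 222, 216 and 398 in αKG. αKG replicates 1 and 2 stood above the highest control but nearer to the DMSO mean than to αKG replicate 3, and the log2 fold change was 0.86 ± 0.26 (SE, n = 3 per group, limma adjusted p = 0.0816). *Orc6*, a subunit of the origin recognition complex, had 115, 89 and 91 in DMSO and 110, 109 and 146 in αKG, with αKG replicates 1 and 2 inside the range of the controls, and its log2 fold change was 0.30 ± 0.17 (limma adjusted p = 0.262). *Orc1*, an ATP-binding subunit of that complex, had 0.76 as its log2 fold change (limma adjusted p = 0.116).

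**Figure D5:**
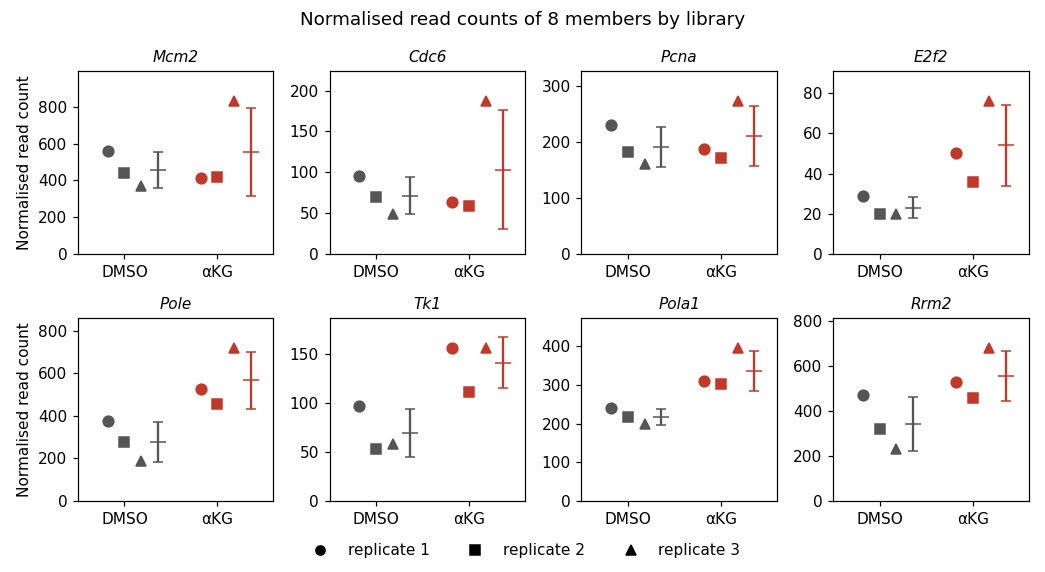
Normalised read counts (vertical axis, from 0) of 8 members in the 3 DMSO and 3 αKG libraries, with the replicate number as the symbol (circle, square and triangle for 1, 2 and 3) and the group mean ± SD beside them. In *Mcm2* and *Cdc6*, αKG replicate 3 stands alone above the other 5 libraries, whereas in *E2f2*, *Pole*, *Tk1* and *Pola1* the groups do not overlap.

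Genes that turn the loaded ring into a moving helicase had a median log2 fold change of 0.50. *Ticrr* encodes Treslin, which carries the kinase signal that fires an origin. It had 120, 92 and 63 in DMSO and 198, 136 and 229 in αKG, without overlap, and a log2 fold change of 1.04 ± 0.25 (SE, n = 3 per group, limma adjusted p = 0.051), just short of the threshold. It was called after quantile normalisation (limma adjusted p = 0.0472) and with libraries scaled to the same total. It overlaps *Kif7* on the opposite strand. *Gins1*, a subunit of the GINS complex that travels with the helicase, had 49, 47 and 39 in DMSO and 36, 36 and 78 in αKG. Its αKG replicates 1 and 2 were below all controls, and the log2 fold change was 0.06 ± 0.30 (limma adjusted p = 0.914), which became -0.31 without αKG replicate 3 and -0.21 after quantile normalisation. *Mcm10*, *Gins3*, *Cdc45* and *Gins2* lay between, with log2 fold changes of 0.65, 0.66, 0.34 and 0.29.

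The polymerases held 2 of the 3 called genes. *Pole* (ENSMUSG00000007080, chr5:110286306-110337474, mm10) had normalised read counts of 373, 275 and 186 in DMSO and 524, 456 and 717 in αKG. The means were 278.0 ± 93.5 and 565.7 ± 135 (SD, n = 3 each), and the log2 fold change was 1.05 ± 0.24 (limma adjusted p = 0.0445). *Pola1* (ENSMUSG00000006678, chrX:93304767-93632155) had 239, 216 and 198 in DMSO and 310, 302 and 395 in αKG, and its log2 fold change was 0.62 ± 0.13 with an adjusted p of 0.0374 in limma. Its standard error on the log2 scale was the smallest of the called genes, and αKG replicates 1 and 2 by themselves were above all controls in both genes. *Pola2*, the regulatory subunit of the same polymerase α, had 190, 172 and 141 in DMSO and 188, 167 and 250 in αKG, so that its groups overlapped although they did not in *Pola1* (log2 fold change 0.25 ± 0.17, limma adjusted p = 0.338). The difference between both subunits was not tested. *Prim1*, the primase that lays the RNA primer, and *Pold1*, the catalytic subunit of the lagging-strand polymerase, had log2 fold changes of 0.57 and 0.50.

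*Pcna*, the sliding clamp that holds polymerases on DNA and a common label of cycling cells, had 230, 183 and 160 in DMSO and 188, 172 and 273 in αKG. αKG replicates 1 and 2 lay between the controls, and the log2 fold change was 0.13 ± 0.19 (SE, n = 3 per group, limma adjusted p = 0.675). *Rfc3* and *Rfc5* encode subunits of the loader that opens the clamp. *Rfc5* had 125, 110 and 71 in DMSO and 130, 132 and 205 in αKG, and its log2 fold change was 0.61 ± 0.24 (limma adjusted p = 0.135), and *Rfc3* had 103, 79 and 83 in DMSO and 84, 76 and 136 in αKG, with 0.12 ± 0.22 (adjusted p = 0.749). The loader's subunits thus differed in whether the groups overlapped, with *Rfc4* on the side of *Rfc5* at a log2 fold change of 0.56. *Fen1* and *Lig1*, which trim and join the Okazaki fragments of the lagging strand, had 0.22 and 0.38.

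Enzymes of deoxynucleotide synthesis had a median log2 fold change of 0.71. All 4 were higher at an unadjusted p under 0.05 (15.7% of all genes). *Tk1* (ENSMUSG00000025574, chr11:117815526-117826092), which salvages thymidine, had 97, 53 and 58 in DMSO and 156, 111 and 156 in αKG. The means were 69.3 ± 24.1 and 141.0 ± 26.0 (SD, n = 3 each), and the log2 fold change was 1.05 ± 0.24 (limma adjusted p = 0.0454). It was the member in which αKG replicates 1 and 2 were farthest above the controls, and it overlaps *Afmid* on the opposite strand. *Rrm2*, the S-phase subunit of ribonucleotide reductase, had 471, 321 and 232 in DMSO and 530, 458 and 680 in αKG, where 1 αKG value fell below the highest control, and the log2 fold change was 0.74 ± 0.23 (limma adjusted p = 0.0857). *Rrm1*, the large subunit of the same enzyme, had 789, 666 and 537 in DMSO and 832, 755 and 1018 in αKG, with 0.39 ± 0.15 (adjusted p = 0.123). Per kilobase of exon, *Rrm2* had the highest mean level of the members, 123 in DMSO and 201 with αKG, and *E2f2* the lowest, 4.71 and 11.1. *Tyms*, which makes thymidylate, had a log2 fold change of 0.67.

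Chromatin has to be rebuilt and remethylated behind the fork. *Chaf1a*, the large subunit of the assembly factor that places histones on new DNA, had 340, 297 and 256 in DMSO and 401, 370 and 570 in αKG, with no overlap and a log2 fold change of 0.57 ± 0.16 (SE, n = 3 per group, limma adjusted p = 0.0751). *Chaf1b*, its partner subunit, had 116, 93 and 52 in DMSO and 82, 85 and 161 in αKG, with overlap and 0.33 ± 0.32 as log2 fold change (limma adjusted p = 0.527). *Dnmt1*, the methyltransferase that copies DNA methylation, and *Uhrf1*, which guides it to new DNA, had 0.41 and 0.52. *Chaf1a* was called without αKG replicate 3 (limma adjusted p = 0.0478).

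The median change was not larger in members with an E2F-like match. Those with a match had a median log2 fold change of 0.41 (27 genes) and the others 0.62 (12 genes), and αKG replicate 3 exceeded αKG replicates 1 and 2 by a median of 0.75 and 0.62. *Pola1*, *Dtl*, *E2f2*, *E2f7*, *Orc1* and *Rrm2* had one or more, as did all 4 chromatin genes and 4 of the 5 MCM genes with an entry, whereas *Tk1*, *Ticrr*, *Mcm2* and *Pcna* had none. These are descriptions of letters in a window and were not tested.

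Other genes of the same pathway were read from the same fit. Of 58 further replication genes, 1 was called higher and 0 lower (2.83% and 0.952% of all genes), with a median log2 fold change of 0.14. The called gene was *Dbf4*, the activator of the kinase that fires origins, which had 250, 180 and 137 in DMSO against 350, 299 and 341 with αKG (log2 fold change 0.84 ± 0.19, SE, n = 3 per group, limma adjusted p = 0.0445). This call was lost when DMSO replicate 2 or 3 or αKG replicate 1 or 2 was left out, where at most 0.0199% of all genes were called higher. It was also lost with a pseudocount of 0.1 (1.37% of all genes called higher) or without the mean-variance trend (0.125%). The replicate block (0.224%) and the average of DMSO replicates 2 and 3 (0.0897%) lost it too. αKG replicate 3 was the highest of the 6 libraries in 49 of the 58. By sub-list, the medians were 0.40 for 14 further origin and firing genes, 0.17 for 25 of the polymerases and fork, 0.09 for 10 of nucleotide supply and -0.03 for 9 of the E2F, DP and RB families.

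Mitosis genes, which act after replication, were set beside the members for the order of the αKG libraries. Of 20 such genes, 8 were called higher (2.83% of all genes), with a median log2 fold change of 0.86. The count was 0 when DMSO replicate 2 or 3 or αKG replicate 1 or 2 was left out, where at most 0.0199% of all genes were called higher. It was also 0 without the mean-variance trend (0.125% of all genes) or with DMSO replicates 2 and 3 averaged (0.0897%). With the replicate block it was 1 (0.224%). *Mki67*, the proliferation marker, had 2738, 2034 and 1601 in DMSO against 3632, 3570 and 3516 with αKG (log2 fold change 0.78 ± 0.15, SE, n = 3 per group, limma adjusted p = 0.034). *Cenpe*, a kinetochore motor, had 578, 404 and 336 in DMSO and 1062, 1002 and 783 in αKG, *Top2a*, which untangles sister DNA, had 1186, 843 and 614 and 1797, 1657 and 1732, and *Bub1*, a checkpoint kinase, had 156, 101 and 71 and 239, 196 and 270. DMSO replicate 1 was the highest control in all 20, as in 44 of the 45 members, but αKG replicate 3 was the highest of the 6 libraries in 12. αKG replicate 3 exceeded the mean of αKG replicates 1 and 2 by a median of 0.19 in the mitosis genes and 0.73 in the members (log2, against 0.09 in genes whose mean reached 50). The difference between both lists was not tested, since it rests on 1 library.

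Transcript length moved with the differences between the αKG libraries. Across the 45 members, the Spearman correlation of exon length was 0.33 with the difference of αKG replicates 1 and 2 from DMSO and -0.37 with the difference of αKG replicate 3 from the other αKG libraries. Across 10181 genes whose mean reached 50, the same correlations were 0.30 and -0.25. These correlations are across genes of the same libraries, which are not independent, and the part of length in the members' pattern was not tested.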

How the data were processed

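Total RNA of 6 cultures (3 DMSO, 3 αKG; groups from the sample labels) was made into libraries with a stranded kit. Per the study's methods and the submitters' processing notes, the authors used Trimmomatic 0.39 to trim, STAR 2.7.10a to map to mm10 (GRCm38.p5), featureCounts 2.0.3 to count uniquely placed reads overlapping the exons of 1 gene, and DESeq2 1.30.1 to normalise. Picard 2.27.1 is named as well, a tool that the study's methods use against duplicate reads in another assay. Whether duplicate reads were removed here was not examined. The unit of the deposited values is called a score. Read counts had been divided by a size factor and rounded, so that count models were not used. The value of 1 read, estimated from the spacing of low values, was 0.926 to 1.12, and 19 of 20 simulated factors were recovered within 1%.

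The model held treatment alone and took in every library (limma 3.58.1 with a mean-variance trend, R 4.3.3) on log2(value + 1), which understates changes of low genes, with no filter and Benjamini-Hochberg adjustment over 20066 genes. All 45 members had a mean of at least 10. Data of this design were simulated with a small spread between libraries and no library apart. Of 200 changed genes, 160 were recovered, 0 with the wrong sign. There were 25 false calls, 0 of them at a mean of at least 10. The real libraries spread more widely in the members, so these rates do not carry over to them. Called genes have an adjusted p under 0.05. Motifs were searched on both strands of RefSeq promoters (Python 3.11.15).

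The members and the other gene lists were chosen with earlier results of these data known. Library values are printed for the largest and smallest log2 fold change of each role group, for *Ccne1*, *Pcna*, *Mcm2*, *Cdt1*, *Gmnn* and *Rrm2*, for called members, for *Mki67* and for up to 4 called genes of other lists. *Cdc6*, *Ccnd1*, *Ccnd2*, *Cdkn2c*, *Rgs5*, *Kcnj8*, *Abcc9*, *Ttn*, *Tek*, *Flt1*, *E2f3*, *E2f4*, *E2f5* and *E2f6* were added after their values were seen. So were *Nkx2-5*, *Pln* and the single values of the 8 fibroblast markers. Positions are those of the table, identical to GENCODE M21 for all members, which gave exon lengths. Of the members, 15 overlap an opposite-strand gene of the table and 2 a same-strand gene (*Rrm1*, *Chaf1b*), and their values are uncertain where reads of both could mix. Alternatives were the pseudocount, a filter, scaling, the trend, a replicate block, each library left out, DMSO replicates 2 and 3 averaged, and p without adjustment.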

Additional observations from a re-analysis of the deposited data

How the results depend on the processing

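Members called higher numbered 3 (2.83% of all genes), and 4 with libraries scaled to the same total (3.03%) or quantile normalised (2.21%). They numbered 0 with a pseudocount of 0.1, without the mean-variance trend, with the replicate block or with DMSO replicates 2 and 3 averaged. Over all genes, 1.37%, 0.125%, 0.224% and 0.0897% were called higher in the same order. Members called higher numbered 20 without adjustment (15.7% of all genes), and 0 to 5 with 1 library left out. The 5 were called without αKG replicate 3, where 19.3% of all genes were called higher. None was called lower under any alternative. Their median log2 fold change of 0.50 lay between 0.22 (without αKG replicate 3) and 0.69 (without αKG replicate 2). Members with every αKG value above every DMSO value numbered 14, and 14 to 27 with 1 library left out (27 without DMSO replicate 1), and 12 with libraries scaled to the same total. Those below numbered 0, and 0 to 2. With all 6 libraries, 13.7% of all genes lay above and 14.6% below. The shares of all genes were not counted in the other settings, and leaving out a library makes such a separation easier for any gene. The counts in those settings are thus not a result about the members. Further replication genes called higher numbered 1, and 0 with the pseudocount of 0.1, without the trend, with the block or averaged. They numbered 2 after quantile normalisation (2.21% of all genes) and 17 without adjustment (15.7%). With 1 library left out they numbered 0 to 5, the 5 being without αKG replicate 3 (19.3%). Those called lower numbered 0, 1 without adjustment (12.4%) and 0 to 4 with 1 library left out. The 4 were called without αKG replicate 3, where 17.9% of all genes were called lower. Mitosis genes called higher numbered 8, then 3 with the pseudocount of 0.1 (1.37% of all genes), 0 without the trend, 1 with the replicate block (0.224%) and 0 averaged. They numbered 19 without adjustment (15.7%) and 0 to 12 with 1 library left out, the 12 being without DMSO replicate 1 (0.753%). Libraries that share a replicate number showed no common deviation across all genes, with correlations of -0.03, 0.06 and 0.02. These values cannot decide whether such libraries came from the same isolation, since pairs of unlike number were not set beside them. The cause of the lost calls was not tested.

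In 14 members the log2 fold change turned negative without αKG replicate 3. With 1 library left out, it lay at -0.012 to 0.17 in *Cdk2*, -0.17 to 0.15 in *Cdc25a*, -0.11 to 0.39 in *Mcm2*, -0.025 to 0.43 in *Mcm3*, -0.084 to 0.31 in *Mcm4*, -0.072 to 0.49 in *Mcm5*, -0.0071 to 0.50 in *Mcm6*, -0.10 to 0.32 in *Mcm7*, -0.17 to 0.65 in *Cdc6*, -0.20 to 0.69 in *Cdt1*, -0.31 to 0.24 in *Gins1*, -0.070 to 0.27 in *Pcna*, -0.13 to 0.28 in *Rfc3* and -0.093 to 0.41 in *Fen1*, the lower end being the value without that library. Values below 0 were also seen without DMSO replicate 3 in *Cdc25a*, *Mcm7* and *Gins1*, at the same total in *Cdc25a* (-0.0033) and after quantile normalisation in *Gins1* (-0.21). *Pole*, *Pola1* and *Tk1* kept their direction under every alternative, with limma adjusted p of up to 0.269, 0.255 and 0.271. At 3 libraries per group and this depth, counting error was up to 23% of a member's value.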

Other observations

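The D-type cyclins, their kinases and CDK inhibitors that act before cyclin E had 0 of 12 genes called in limma. Over all genes, 2.83% were called higher and 0.952% lower. At an unadjusted p under 0.05, 3 were higher and 0 lower (15.7% and 12.4% of all genes). Some showed the αKG libraries in the opposite order to the members. *Ccnd1*, cyclin D1, had normalised read counts of 368, 366 and 354 in DMSO and 566, 533 and 251 in αKG, so that αKG replicate 3 was the lowest of the 6 libraries. *Ccnd2*, cyclin D2, had 1640, 1656 and 1644 in DMSO and 2221, 2360 and 1640 in αKG, where replicate 3 equalled the lowest control. *Cdkn2c*, an inhibitor of CDK4 and CDK6, had 165, 119 and 97 in DMSO and 150, 151 and 251 in αKG, the order seen in the members. αKG replicate 3 was the highest of the 6 libraries in 4 of the 12. The DMSO libraries, which differed by a median of 1.53-fold between replicates 1 and 3 in the members, differed by little in *Ccnd1* and *Ccnd2*.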
